A study of Mus musculus with 4 samples.

Results

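The transcripts described here are those of 9 transcription factor genes of blood stem and progenitor cells: Lmo2, Lyl1, Tal1, Hhex, Mef2c, Bcl11a, Hlf, Mycn and Nfe2. They were taken by symbol from the 19938 named genes of a whole-transcript array, and each had 1 probe set with a single gene symbol, so all 9 were measured. The arrays held RNA of cells from the bone marrow of wild-type C57BL/6 mice, whose age the labels do not give. Tcf1 cells (2 arrays, labelled as biological replicates) came from lymphoid-primed multipotent progenitors (LMPPs) transduced with a retrovirus that carries Tcf1 and the marker VEX, and were grown with IL7 and Flt3 ligand on OP9, a stromal line that has no Notch ligand added. Control cells (1 array) came from LMPPs given the same vector without Tcf1 and were grown on OP9 that displays the Notch ligand DL4. Both cultures were sorted on day 10 for live cells with CD45.2, Thy1 and CD25 and without Mac1 or Gr1. The LMPP array (1 array of pooled cells) held cells sorted as lineage-negative, Sca1- and Kit-positive and high in Flt3, and kept for 48 hours with IL3, IL6, SCF and Flt3 ligand. Vector and stroma differ together between Tcf1 and control cells, and both differ from LMPPs in transduction as far as stated, cytokines, culture time, stroma and sort gate, so the parts these play cannot be told apart.

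Stem and progenitor cells hold a set of transcription factors that keep them undifferentiated and leave several blood lineages possible. In the thymus, the earliest T cell precursors still carry many of them and shut them down as they commit to the T lineage under Notch signals, and several, Lmo2, Lyl1, Tal1, Hhex and Mef2c among them, are known as oncogenes of T cell leukaemia when they stay on. LMO2 is a LIM-domain bridge that binds no DNA itself and joins TAL1 or LYL1, basic helix-loop-helix proteins, to E proteins, LDB1 and GATA factors. Tcf1, the factor given by the retrovirus, acts in T lineage specification, but its gene Tcf7 is not analysed here, so the transduction itself was not checked.

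Of the markers that cells were sorted for, Thy1, Il2ra and Flt3 were ordered as the gates are, and Kit was not. Thy1 read 12.38 and 12.53 in Tcf1 cells and 12.98 in control cells, against 8.13 in LMPPs, and Il2ra, which encodes CD25, read 12.91 and 12.99 in Tcf1 cells and 13.64 in control cells, against 6.88 in LMPPs (log2 signal throughout). Flt3, high in the LMPP gate, read 10.97 and 11.03 in Tcf1 cells and 6.75 in control cells, against 11.91 in LMPPs. Kit, also part of the LMPP gate, was lowest in LMPPs, at 11.17 and 11.27 in Tcf1 cells and 11.39 in control cells, against 9.68 in LMPPs. Itgam, the gene of Mac1, which both cultures were sorted without, read 7.44 and 7.70 in Tcf1 cells, 7.03 in control cells and 8.25 in LMPPs. Array medians over the named genes lay between 7.47 and 7.59, and the Tcf1 arrays differed by a median of 0.15 per gene. In bulk RNA of this kind, fewer cells with a transcript and less of it per cell cannot be told apart. The Tcf1 pair gave the only estimate of spread, nothing in the labels states that its arrays came from separate mice, and each single array was taken to vary as that pair did.

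Of the 9 factors, Lmo2, Mef2c, Bcl11a and Hlf fell in Tcf1 cells against LMPPs, by 2.77-fold to 4.30-fold, and 5 did not pass (limma, adjusted p under 0.05 over all genes). Lmo2, Mef2c and Bcl11a were at the same time higher in Tcf1 cells than in control cells, by 1.93-fold to 4.44-fold, so that these 3 lay between the 2 other kinds of cell. Hlf stood near its control value, Hhex did so with a wide gap between replicates, and Lyl1, Tal1, Mycn and Nfe2 passed in neither comparison. Lower by the test in Tcf1 cells were 1.31% of all genes against LMPPs, and higher were 1.9% against control cells. Between control cells and LMPPs, with 1 array each and no test, 5 of the 9 were at least 2-fold lower in control cells, against 2.36% of all genes, and 8 of the 9 were lower by any amount, against 52.7%. The 4 falls and 3 higher values kept their direction but no longer passed when all 35399 probe sets, named or not, were fitted (adjusted p from 0.13 to 0.279, limma), or when the variance was not moderated across genes (adjusted p from 0.694 to 0.824).

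**Figure D1:**
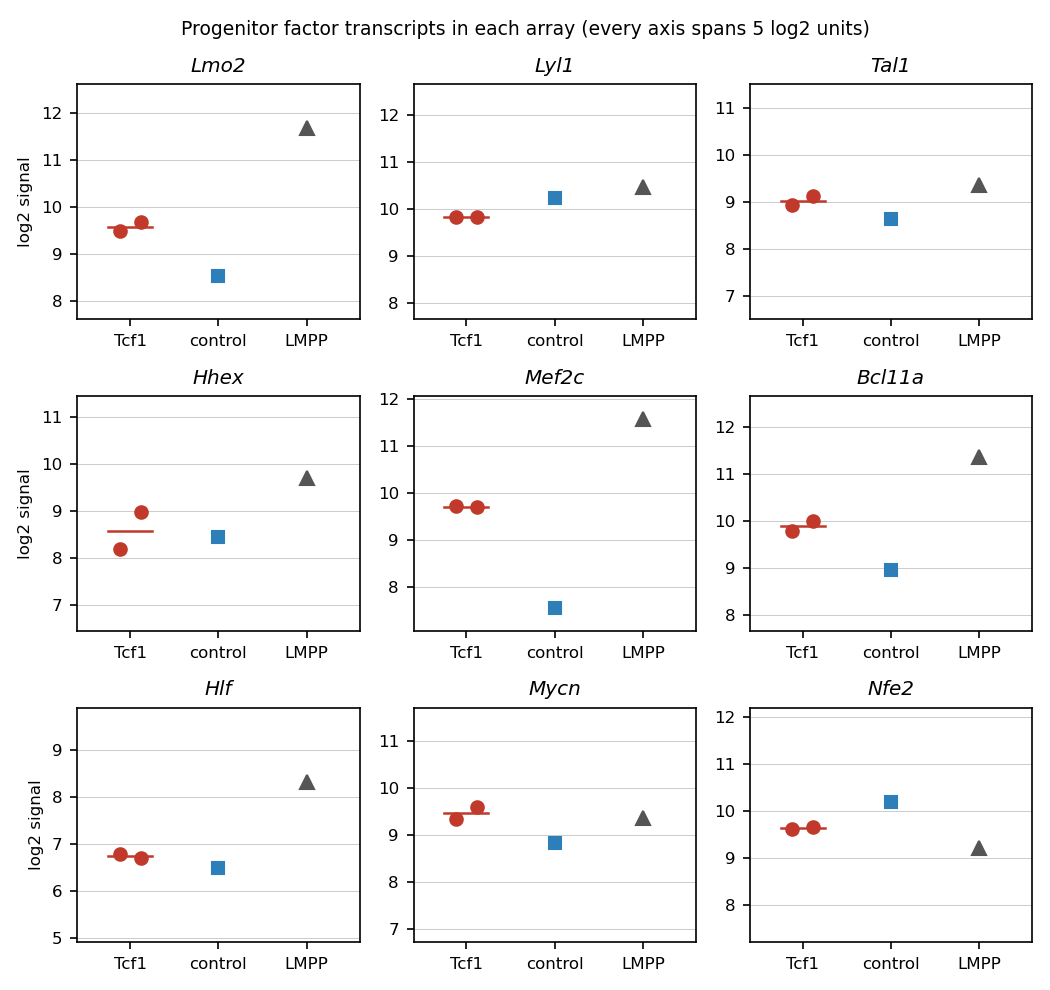
Log2 signal of each factor (vertical axis, its own position but always 5 units tall) in the 2 Tcf1 arrays (circles, with their mean as a line), the control array (square) and the LMPP array (triangle). The Tcf1 values of Lmo2, Mef2c and Bcl11a lie above control and below LMPP, Hlf is low in both T lineage groups, and the Hhex replicates lie 0.79 apart.

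The transcripts of the LMO2 complex genes are given first. Lmo2, the bridging subunit, read 9.47 and 9.67 in Tcf1 cells, 8.52 in the control array and 11.67 in the LMPP array. The Tcf1 arrays did not overlap either of the others and lay 30.1% and 36.3% of the way from the control to the LMPP value on the log2 scale. Against LMPPs, the Tcf1 mean of 9.57 ± 0.14 (SD, n = 2) was lower by 2.10 (difference -2.10, SE 0.17, adjusted p = 0.00167, limma), a 4.30-fold fall. Against control cells Lmo2 was higher by 1.05 (SE 0.17, adjusted p = 0.0202, limma), or 2.07-fold, and control cells stood 8.88-fold below LMPPs.

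Tal1, the helix-loop-helix partner required for the formation of blood stem cells, read 8.94 and 9.14 in Tcf1 cells, 8.64 in the control array and 9.37 in the LMPP array. Its Tcf1 values also lay between the others, but within a range of 0.72, and neither difference passed (-0.33, SE 0.17, adjusted p = 0.49 against LMPPs; 0.39, SE 0.17, adjusted p = 0.39 against control cells; limma). Taken singly, replicates 1 and 2 gave -0.43 and -0.23 against LMPPs and 0.29 and 0.49 against control cells. Lyl1, the close relative of Tal1 that can stand in for it in adult stem cells, read 9.83 in both Tcf1 arrays, 10.23 in the control array and 10.48 in the LMPP array. It was the one of the 3 complex members whose Tcf1 arrays were lowest of all, with a difference from LMPPs of -0.64 (SE 0.16, adjusted p = 0.102, limma) and from control cells of -0.40 (SE 0.16, adjusted p = 0.317, limma). Lyl1 passed against LMPPs after median centring (adjusted p = 0.0326) and when the dimmest 25% of genes were left out (adjusted p = 0.0472).

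The 3 factors with roles in lymphoid progenitors followed. Mef2c, a MADS-box factor that acts in lymphoid and myeloid progenitors and in B cells, read 9.72 and 9.70 in Tcf1 cells, 7.56 in the control array and 11.58 in the LMPP array. This was the widest range of the 9 factors, 4.02, and the Tcf1 arrays lay 53.7% and 53.2% of the way from control to LMPP. Mef2c was lower in Tcf1 cells than in LMPPs by 1.87 (difference -1.87, SE 0.16, adjusted p = 0.00192, limma), or 3.66-fold, and higher than in control cells by 2.15 (SE 0.16, adjusted p = 0.000941, limma), or 4.44-fold. The control array was 16.3-fold below the LMPP array.

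Bcl11a, a zinc finger factor needed for B cell development and for lymphoid progenitors, read 9.80 and 10.02 in Tcf1 cells, 8.96 in the control array and 11.38 in the LMPP array. Its Tcf1 arrays stood at 34.7% and 43.7% of the control-to-LMPP distance. The difference was -1.47 against LMPPs (SE 0.18, adjusted p = 0.00765, limma), a 2.77-fold fall, and 0.95 against control cells (SE 0.18, adjusted p = 0.0317, limma), 1.93-fold higher. Bcl11b, its relative and a factor of T lineage commitment, stood the other way round, at 9.40 and 9.60 in Tcf1 cells and 10.28 in control cells, against 7.42 in LMPPs. Bcl11b rose by 2.08 against LMPPs (SE 0.17, adjusted p = 0.0017, limma), and its difference of -0.78 from control cells did not pass (adjusted p = 0.0593, limma).

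Hhex, a homeobox factor required in early lymphoid progenitors, read 8.18 and 8.98 in Tcf1 cells, 8.44 in the control array and 9.71 in the LMPP array. The replicates lay on either side of the control value, and their gap of 0.79 was wider than that of 99.1% of genes. Both were below LMPPs, but the difference of -1.13 (SE 0.31) did not pass (adjusted p = 0.133, limma), with -1.53 in replicate 1 and -0.73 in replicate 2 taken singly. It passed after median centring (adjusted p = 0.0218) and without the dimmest 25% of genes (adjusted p = 0.0149). Against control cells the difference was 0.14 (SE 0.31, adjusted p = 0.95, limma), or -0.26 in replicate 1 and 0.53 in replicate 2 taken singly.

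Hlf, a PAR-domain leucine zipper factor typical of blood stem cells, read 6.79 and 6.72 in Tcf1 cells, 6.49 in the control array and 8.33 in the LMPP array. It fell by 1.58 in Tcf1 cells against LMPPs (SE 0.16, adjusted p = 0.00400, limma), or 2.99-fold, and the Tcf1 arrays stood at 16.2% and 12.3% of the control-to-LMPP distance. Its difference of 0.26 from control cells did not pass (SE 0.16, adjusted p = 0.613, limma). In both T lineage groups its signal ranked in the lower part of the array, above 31.9% to 36.4% of genes, against 61.4% in LMPPs, and since no detection calls were used, a residual level cannot be told apart from background there.

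Mycn and Nfe2 were not lower in Tcf1 cells than in LMPPs on average. Mycn, a MYC family factor of stem cell growth, read 9.36 and 9.61 in Tcf1 cells, 8.83 in the control array and 9.36 in the LMPP array. Its difference from LMPPs was 0.12 (SE 0.18, adjusted p = 0.903, limma), and both Tcf1 arrays were above the control array, by 0.65 on average (SE 0.18, adjusted p = 0.126, limma). That comparison passed after renewed quantile normalization (0.78, adjusted p = 0.0408), after median centring (adjusted p = 0.0487) and without the dimmest 25% of genes (adjusted p = 0.0499). Nfe2, a leucine zipper factor of megakaryocytes and red cell precursors, ran opposite to Lmo2, Mef2c and Bcl11a, at 9.62 and 9.68 in Tcf1 cells and 10.21 on the control array, against 9.21 on the LMPP array. Neither difference passed (0.44, SE 0.16, adjusted p = 0.271 against LMPPs; -0.56, SE 0.16, adjusted p = 0.137 against control cells; limma), although the second did after median centring (-0.60, adjusted p = 0.0456).

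Across the 9 factors, both Tcf1 arrays were below the LMPP array for 7 and above it for Nfe2 alone, where 36.8% and 35.8% of all genes were so placed. Both were above the control array for 6 and below it for Lyl1 and Nfe2, where 38.6% and 34.2% of all genes were so placed. The median difference of the 9 was -1.13 from LMPPs and 0.39 from control cells, beside medians of 0.0047 and 0.017 over all genes. Taken singly, replicate 1 gave medians of the 9 of -1.53 and 0.30, and replicate 2 gave -0.73 and 0.53. For control cells minus LMPPs the median of the 9 was -1.27, beside -0.014 over all genes. Tcf1 cells enter both tested comparisons, and the LMPP array enters 2 of the 3, so the 3 sets of differences are not independent of each other.

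**Figure D2:**
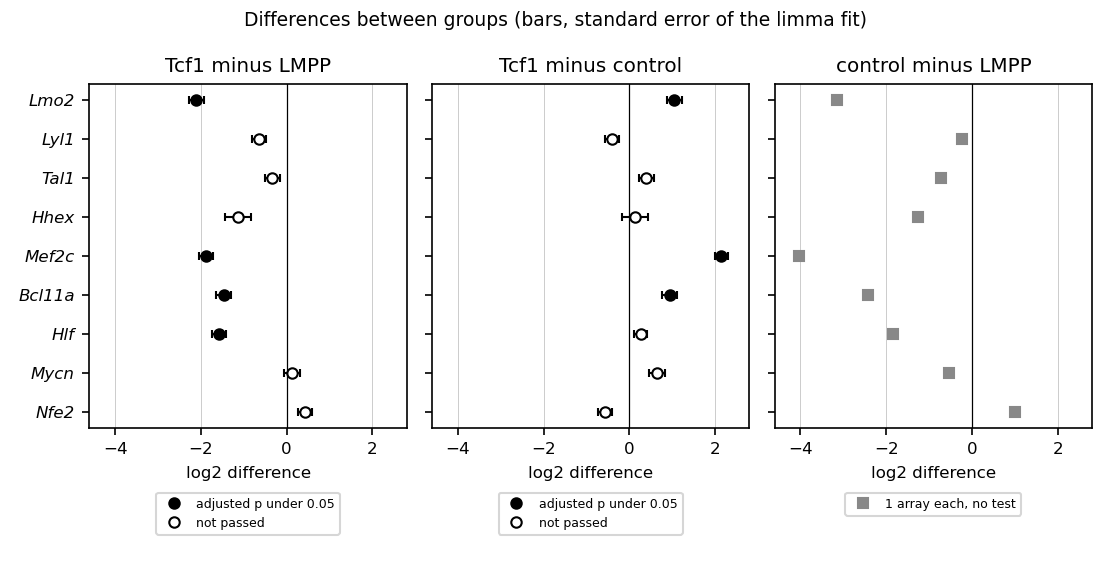
Log2 differences of the 9 factors for Tcf1 minus LMPP, Tcf1 minus control and control minus LMPP. Bars are standard errors of the limma fit, filled circles passed at an adjusted p under 0.05, and squares have no test; Mef2c is farthest from 0 in the middle and right panels, at 2.15 and -4.02.

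Markers of other cell types differed beside these results. Of 10 myeloid markers, 7 were higher in Tcf1 cells than in control cells and 3 did not pass, and against LMPPs 2 were higher, 3 lower and 5 did not pass. Their mean log2 level was 9.75 and 9.87 in Tcf1 cells and 7.82 in control cells, against 10.05 in LMPPs. The order of this mean was like that of Lmo2, Mef2c and Bcl11a, but single markers did not all follow it. Adgre1 read 11.10 and 11.43 in Tcf1 cells and 6.51 in control cells, against 6.89 in LMPPs. Lyz2 read 11.59 and 12.01 in Tcf1 cells and 7.71 in control cells, against 9.66 in LMPPs. The 3 lower than in LMPPs were Elane, Ctsg and Ngp. None of the 10 can be called absent, since the arrays were used without detection calls. Of 3 measured progenitor surface genes, Flt3 and Cd34 were higher in Tcf1 cells than in control cells, and Kit did not pass. Against LMPPs, Kit rose by 1.54 (adjusted p = 0.00472, limma), Flt3 fell by 0.91 (adjusted p = 0.0339, limma) and Cd34 did not pass. B lineage markers averaged 6.63 and 6.70 in Tcf1 cells, 6.85 in control cells and 7.07 in LMPPs. Only Cd79b of them passed, with differences of -2.39 from LMPPs and -1.53 from control cells (adjusted p = 0.00144 and 0.00659, limma). Stromal markers averaged 7.06 and 7.11 in Tcf1 cells, 7.20 in control cells and 7.03 in LMPPs. Of 8 T lineage markers, 5 were higher in Tcf1 cells than in LMPPs and 4 lower than in control cells. The 5 were Thy1 and Il2ra, on which the cells were sorted, and Gata3, Bcl11b and Cd3g. The 4 lower than in control cells were Cd3g, Cd3e, Notch1 and Gata3. Cd3g read 6.48 and 6.64 in Tcf1 cells and 13.00 in control cells, against 5.62 in LMPPs, so its Tcf1 values stayed far below the control array. Cd3e, Ptcra and Notch1 did not pass against LMPPs. Of 6 mast cell markers 1 was higher and 2 lower than in LMPPs. Among all 19938 genes, 349 were higher and 261 lower in Tcf1 cells against LMPPs, and 378 higher and 496 lower against control cells (limma). The part of other cells in the differences of the 9 factors was not tested.

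Start regions are shown for the falling factors that had one, because these factors moved together against LMPPs. RefSeq start sites (GRCm38.p6) were matched by symbol for 7 of the 9 factors, with 10 start sites in all, and none was matched for Lmo2 or Nfe2. Each sequence is the 250 bases before the start site on the strand of the gene, 5′ to 3′, and capitals mark matches on either strand to the E-box CANNTG, which E protein dimers of TAL1 and LYL1 bind, or to the TCF/LEF core CTTTGA. For Mef2c (chr13:83503784-83504033, plus strand) the first of its 3 start sites is shown, beside Bcl11a (chr11:24080445-24080694, plus strand) and Hlf (chr11:90390918-90391167, minus strand).
Mef2c: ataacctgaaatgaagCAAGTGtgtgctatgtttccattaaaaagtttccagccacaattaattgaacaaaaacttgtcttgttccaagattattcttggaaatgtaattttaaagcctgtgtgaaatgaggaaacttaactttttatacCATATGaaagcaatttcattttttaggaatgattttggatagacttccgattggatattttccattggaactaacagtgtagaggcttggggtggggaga
Bcl11a: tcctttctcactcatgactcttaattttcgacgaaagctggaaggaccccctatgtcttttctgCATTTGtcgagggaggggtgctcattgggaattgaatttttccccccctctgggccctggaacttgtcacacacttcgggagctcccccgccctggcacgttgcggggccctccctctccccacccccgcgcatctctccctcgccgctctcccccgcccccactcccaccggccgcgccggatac
Hlf: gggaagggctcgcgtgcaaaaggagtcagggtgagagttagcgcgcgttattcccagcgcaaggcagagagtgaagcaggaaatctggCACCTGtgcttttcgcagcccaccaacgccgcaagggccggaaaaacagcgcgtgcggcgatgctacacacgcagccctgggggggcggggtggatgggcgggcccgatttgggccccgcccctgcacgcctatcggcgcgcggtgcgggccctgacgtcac
The 3 sequences held an E-box each, Mef2c 2 of them, and no match overlapped another. Of the start regions of Mef2c that are not shown, the second held 0 E-boxes and the third held 1. Such a match stood in 66.2% of all 32851 windows of this length in the RefSeq table. CTTTGA, which 13.8% of the windows hold, was in none of the 3 and in neither of the other start regions of Mef2c. It was found once upstream of Lyl1, once upstream of Mycn and once at the first of the 2 start sites of Tal1. These matches describe letters in the windows and no binding.

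Partners of the LMO2 complex were described next, with the factors that work beside it in progenitors. Of 14 such genes, 1 was higher and 2 were lower in Tcf1 cells than in LMPPs, and 11 did not pass. Among all genes, 3.06% passed in either direction. Gata3, the GATA factor of T cells, read 9.95 and 10.29 in Tcf1 cells and 11.42 in control cells, against 7.58 in LMPPs, and rose by 2.54 against LMPPs (SE 0.20, adjusted p = 0.00136, limma). Gata2, the GATA factor of stem and progenitor cells, read 7.98 and 8.18 in Tcf1 cells and 8.30 in control cells, against 9.15 in LMPPs, and fell by 1.08 (SE 0.17, adjusted p = 0.0242, limma). Tcf4, an E protein, fell by 0.99 against LMPPs (SE 0.19, adjusted p = 0.0476, limma). Against control cells Gata3 was lower by 1.30 (difference -1.30, SE 0.20, adjusted p = 0.0144, limma) and the other 13 did not pass. The median of the 14 was 0.029 against LMPPs and -0.41 against control cells.

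Other stem and progenitor transcription factors, 19 measured of 20 listed, showed few differences from LMPPs and more from control cells. Gfi1b, a transcriptional repressor that red cell and megakaryocyte development needs, was the only one that passed against LMPPs (difference -1.35, SE 0.18, adjusted p = 0.0105, limma). It read 9.91 and 10.14 in Tcf1 cells and 9.73 in control cells, against 11.38 in LMPPs. Against control cells 7 were higher in Tcf1 cells, 2 were lower and 10 did not pass, where 4.38% of all genes passed in either direction. Hoxa9 and Meis1, a homeobox pair that acts together in progenitors, were higher by 3.49 (SE 0.16) and 3.29 (SE 0.17), with adjusted p = 0.000219 and 0.000324 (limma). Hoxa9 read 10.78 and 10.74 in Tcf1 cells, against 7.27 in the control array, and Meis1 10.66 and 10.87 in Tcf1 cells, against 7.48 in the control array. Spi1, the PU.1 factor of myeloid and early T precursors, was higher by 2.01, Hoxa5 by 1.81 and Hoxa7 by 1.72. Against LMPPs, Spi1 differed by -0.19, Hoxa7 by 0.50, Hoxa5 and Hoxa9 by 0.53 each and Meis1 by 0.60. None of these 5 differences from LMPPs passed (limma), although both Tcf1 arrays were above the LMPP array for Meis1 and the 3 Hoxa genes.

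**Figure D3:**
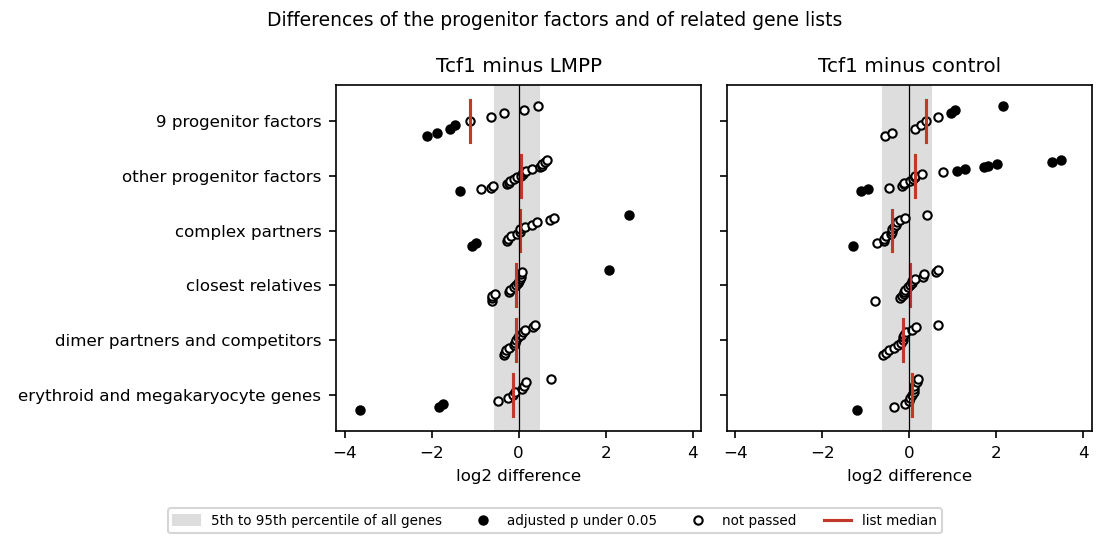
Log2 differences of the 9 factors and of the related gene lists (1 point a gene, red line the list median, filled where the adjusted p is under 0.05). The grey band spans the 5th to the 95th percentile of all genes, -0.55 to 0.47 in the left panel and -0.60 to 0.49 in the right one.

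Close relatives of the 9 factors, 15 measured of 16 listed, were set beside them. Bcl11b alone passed against LMPPs and 0 against control cells. At an unadjusted p under 0.05 there were 5 against LMPPs and 3 against control cells (limma), where 14.5% and 14.1% of all genes had one. Myc, the relative of Mycn, read 12.14 and 12.25 in Tcf1 cells, 12.29 in control cells and 12.26 in LMPPs. Mef2a read 10.82 and 11.01 in Tcf1 cells, 10.26 in control cells and 11.53 in LMPPs, in the order of Mef2c but over a range of 1.27, and passed neither test (adjusted p = 0.143 and 0.103, limma). The median of the relatives was -0.063 against LMPPs and 0.0074 against control cells.

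No gene of 13 dimer partners and competitors of MYCN and NFE2 passed either test (limma), and at an unadjusted p under 0.05 there were 0 against LMPPs and 3 against control cells, beside 14.5% and 14.1% of all genes. Mxd1, a MAX partner that opposes MYC proteins, differed from control cells by 0.67 (SE 0.17, adjusted p = 0.0895) and Bach2, a competitor of NFE2 for small MAF proteins, by -0.61 (SE 0.22, adjusted p = 0.255). Of 11 measured of 16 erythroid and megakaryocyte genes, 3 fell against LMPPs and 8 did not pass, where 1.31% of all genes were lower by the test. Car2, a carbonic anhydrase, read 6.06 and 6.61 in Tcf1 cells and 7.54 in control cells, against 9.97 in LMPPs, and was lower in Tcf1 cells than in both. Tbxas1, the thromboxane synthase and an NFE2 target in megakaryocytes, fell by 1.83 against LMPPs (SE 0.16, adjusted p = 0.00219, limma), and Car1 by 1.74 (SE 0.16, adjusted p = 0.00273, limma).

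Genes with the most similar pattern were sought for the 5 factors whose range over the 4 arrays was at least 1. Likeness was the distance between centred log2 values over the 4 arrays, among 18606 named genes, with no test. The nearest gene to Bcl11a was Itga1, an integrin chain, at a distance of 0.12, and the nearest to Hlf was Car1, at 0.14. Rflnb lay nearest to Hhex at 0.17, Abcb1b, an efflux transporter, to Lmo2 at 0.30, and Gapt, a GRB2-binding adaptor, to Mef2c at 0.31. Gapt read 9.52 and 9.68 in Tcf1 cells and 7.34 in control cells, against 11.74 in LMPPs. With 4 arrays, 2 of them replicates, a short distance says only that the steps between the groups were of like size.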

How the data were processed

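RNA of 4 arrays (Tcf1 cells 2, control cells 1, LMPPs 1) was amplified (Ambion WT Expression), then fragmented and labelled with biotin (Affymetrix WT Terminal Labeling), per the labels' protocols. The authors deposited 1 log2 value for each probe set, made with RMA and Partek 6.5, per the submitters' processing notes. The log base was read from RMA and the range of the values, and no genome build is named in those notes. Of 35399 probe sets, 21789 had 1 gene symbol and gave 19938 genes, with the probe set of the highest mean kept where a gene had several. Group means were fitted to all genes with limma 3.58.1 in R 4.3.3, with Benjamini-Hochberg adjustment, on 1 residual degree of freedom and a prior of 5.78. For control cells against LMPPs no test was made and genes with a 2-fold or larger gap were counted. Precision is limited by the number of arrays.

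The 9 factors, the lists of related and marker genes and the tests were chosen with earlier results of these data known. The genes named are all 9 factors, up to 5 passing genes of each related list with the largest difference, up to 2 where none passed, and 1 nearest pattern for each factor with a range of at least 1 (log2). Gfi1b, Mef2a and Myc were named after their values were seen, and marker genes as checks of the labels. Alternatives were 2 other normalizations, a filter on dim genes, all probe sets, the mean of a gene's probe sets, a variance trend, no moderation and each Tcf1 array left out. The fit was tested on simulated data of 19938 genes, with 200 genes changed in the Tcf1 arrays and the same spread per gene in all 4 arrays. It recovered 52% of 2-fold and 99.6% of 4-fold changes for Tcf1 cells against LMPPs, with 12.4% of calls false. Against control cells it recovered 55.8% and 99.4%, with 11.5% of calls false, so the share of false calls was above the nominal level in both. These shares hold for the simulated setting, since the spread of the single control and LMPP arrays is not known.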

Additional observations from a re-analysis of the deposited data

Results flagged for a closer look

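For 3 of the 9 factors, the difference from LMPPs itself differed between Tcf1 cells and control cells. Both differences use the same LMPP array, so their difference equals Tcf1 minus control, which limma tested. It was 1.05 for Lmo2 (adjusted p = 0.0202), 2.15 for Mef2c (adjusted p = 0.000941) and 0.95 for Bcl11a (adjusted p = 0.0317), and both Tcf1 arrays lay above the control array for each. The control and LMPP values rest on 1 array each.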

How the results depend on the processing

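The 4 falls against LMPPs and the 3 higher values against control cells kept their direction under all alternatives, and passed in all that gave a test except the fit over all 35399 probe sets and the unmoderated test. In those 2 fits 0 of the 9 factors passed, against LMPPs or control cells, and the adjusted p of the called differences ran from 0.13 to 0.279 over all probe sets and from 0.694 to 0.824 without moderation. The unmoderated test rests on 1 degree of freedom per gene, and for the fit over all probe sets the cause was not tested. Against control cells 5 factors passed after median centring. Over all genes, 610 passed against LMPPs and 874 against control cells as reported, 1456 and 1646 after median centring, 1196 and 1437 above the 25th percentile, 936 and 1237 with a variance trend, 12 and 12 unmoderated, and 0 and 0 over all probe sets, where 3317 and 3702 had an unadjusted p under 0.05 (limma). After median centring 41.7% of the genes passing against LMPPs were higher in Tcf1 cells, against 57.2% as reported. The sign turned without Tcf1 replicate 2 for Hhex against control cells (-0.26, and 0.53 without replicate 1) and for Mycn against LMPPs (-0.0065, and 0.25 without replicate 1).

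Counts of passing genes in the related lists moved as follows, with 0 in every list over all probe sets and in the unmoderated test. Against LMPPs, complex partners went to 5 after either normalization or the filter on dim genes, relatives to 3 after median centring or with the trend, and other progenitor factors to 4 after median centring and 2 under quantile normalization, the filter, the trend or the mean of probe sets. Against control cells, complex partners went to 4 after median centring or with the trend and 2 under quantile normalization or the filter, relatives to 2 after median centring or the filter and 1 under quantile normalization, the trend or the mean of probe sets, dimer partners to 1 after either normalization or the filter, and erythroid and megakaryocyte genes to 0 under quantile normalization. No paired analysis was possible because only the Tcf1 group has more than 1 array. The single LMPP and control arrays could not be left out, and leaving out a Tcf1 array left values with no test. Without detection calls, signal over background limits what low values such as those of Hlf can show.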
